A study of Bos taurus with 6 samples.

Results

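The genes described here encode the membrane and scaffold proteins of cell-to-cell junctions: claudins, cadherins, connexins, occludin, the junctional adhesion molecules and the zonula occludens proteins. They were picked by gene symbol from the platform annotation, which names 15216 genes. CDH1, CDH3, CDH5 and CLDN5 were left out because they serve as markers of epithelium or endothelium. This gave 59 genes with 81 probes, namely 20 cadherins, 19 claudins, 14 connexins, 4 genes of occludin and the junctional adhesion molecules, and 2 zonula occludens genes. Of these, 43 genes with 57 probes were measured, meaning that on at least 4 of 6 arrays the signal of the same RNA, cetrotide or control, was brighter than 95% of the negative control spots (from here on called the limit).

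The RNA came from granulosa cells aspirated from coasted pre-ovulatory follicles of multiparous Holstein cows. All cows had received gonadotropins to stimulate the ovary. At 68 hours, cells of cows given cetrotide, a gonadotropin-releasing hormone antagonist that lowers the release of luteinizing hormone, were hybridised on two-colour arrays against cells of control cows without it. Each of 2 slides held 3 arrays, with the cetrotide RNA labelled with Cy5 on slide 1 but with Cy3 on slide 2, and arrays in the same position of both slides were averaged into 3 dye-swap replicates. The labels do not say which cow or pool of cows each array holds, and the p-values therefore cover just the spread among these 3 averages, which may be technical. An aspirate can carry cells other than granulosa cells, and in such bulk RNA fewer cells of a type and less RNA per cell cannot be told apart.

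Granulosa cells form a layered epithelium-like wall inside the follicle and are joined to each other, and to the oocyte, by gap junctions, channels built from connexins through which small molecules pass. Cadherins hold cells together at adherens junctions, where their inner ends bind catenins. Claudins, occludin and the junctional adhesion molecules form tight junctions, which seal the space between epithelial or endothelial cells, and the zonula occludens proteins tie these membrane proteins to the actin skeleton. After the surge of luteinizing hormone, gap junction communication in the granulosa is known to close down as the cells luteinize.

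Median probe intensity was 107 to 312.6 units per array and channel, against medians of 78.66 to 247.2 units for the negative control spots, and 53.51% to 82.46% of gene probes were above the limit. Of 23 granulosa cell markers 21 were measured, FSHR and CYP19A1 among them, while FOXL2 and LHCGR were not above the limit on enough arrays. All 18 theca and stroma markers were measured too, so such counts do not show how pure the cells were. On the log2 scale, the mean level over the granulosa list was 9.32 to 10.61 in cetrotide RNA and 10.09 to 10.50 in control RNA. Replicate 3 stood apart, with a median log2 ratio of cetrotide over control of -1.09 over the granulosa markers, against -0.03 in replicate 1 and 0.13 in replicate 2. The markers did not all follow this median. FSHR had ratios of -0.75, 0.11 and -2.43, but STAR had 5.39, 2.00 and 1.99 and TNFAIP6 had -2.41, -0.56 and -0.50. Where replicate 3 decides a mean named here, the mean without it is given.

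No junction gene passed a Benjamini-Hochberg adjusted p of 0.05 in limma, and the smallest adjusted p among them was 0.212. The background was the same: of 27429 features compared, 0% were called higher and 0% lower. With an unadjusted p below 0.05 there were 5 junction genes higher in cetrotide RNA (GJB5, F11R, CLDN23, CLDN4 and TJP1) and 1 lower (CLDN14), where the shares among all features were 8.00% and 6.46%. A fit of the 6 separate arrays with position as a replicate block called 411 features higher and 264 lower after adjustment, and F11R was the junction gene among them. That fit applied 1 correlation, 0.852, to all features, and its 6 arrays were taken as dye swaps of 3 positions, not as 6 replicates. Of the 5 higher genes, TJP1, F11R, CLDN4 and CLDN23 kept an unadjusted limma p below 0.05 without replicate 1, GJB5 alone without replicate 2, and GJB5, F11R and CLDN23 without replicate 3, while CLDN14 lost it in each case.

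The measured junction genes lay on both sides of 0, and the larger ratios were mostly above it. Of 43, 25 had a mean log2 ratio above 0 and 18 below it, with a median of 0.05 beside -0.01 over all features. Only 20 of the 43 had both RNAs above the limit on all arrays, and the median of those was 0.08. Many of the others had dim probes, where an offset added to all signals pulls ratios towards 0. A ratio near 0 on such a probe does not show an unchanged level. At least 1.5-fold higher means were found for 12 of the 43, or 27.9%, against 8.09% of all features: CLDN1, CLDN4, CLDN10, CLDN11, CLDN23, OCLN, F11R, TJP3, GJB2, GJB6, CDH17 and CDH26. Of these, OCLN, TJP3 and CDH26 counted as measured only through cetrotide RNA, in which they were the higher. Means at least 1.5-fold lower were found for GJA1, JAM2 and CDH12, which is 6.98% against 4.77%. The list was chosen with earlier results of these data known, so these shares describe it and test nothing. All replicates had the same sign for 17 genes, 39.5% of the 43, beside 38.6% of all features.

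**Figure D1:**
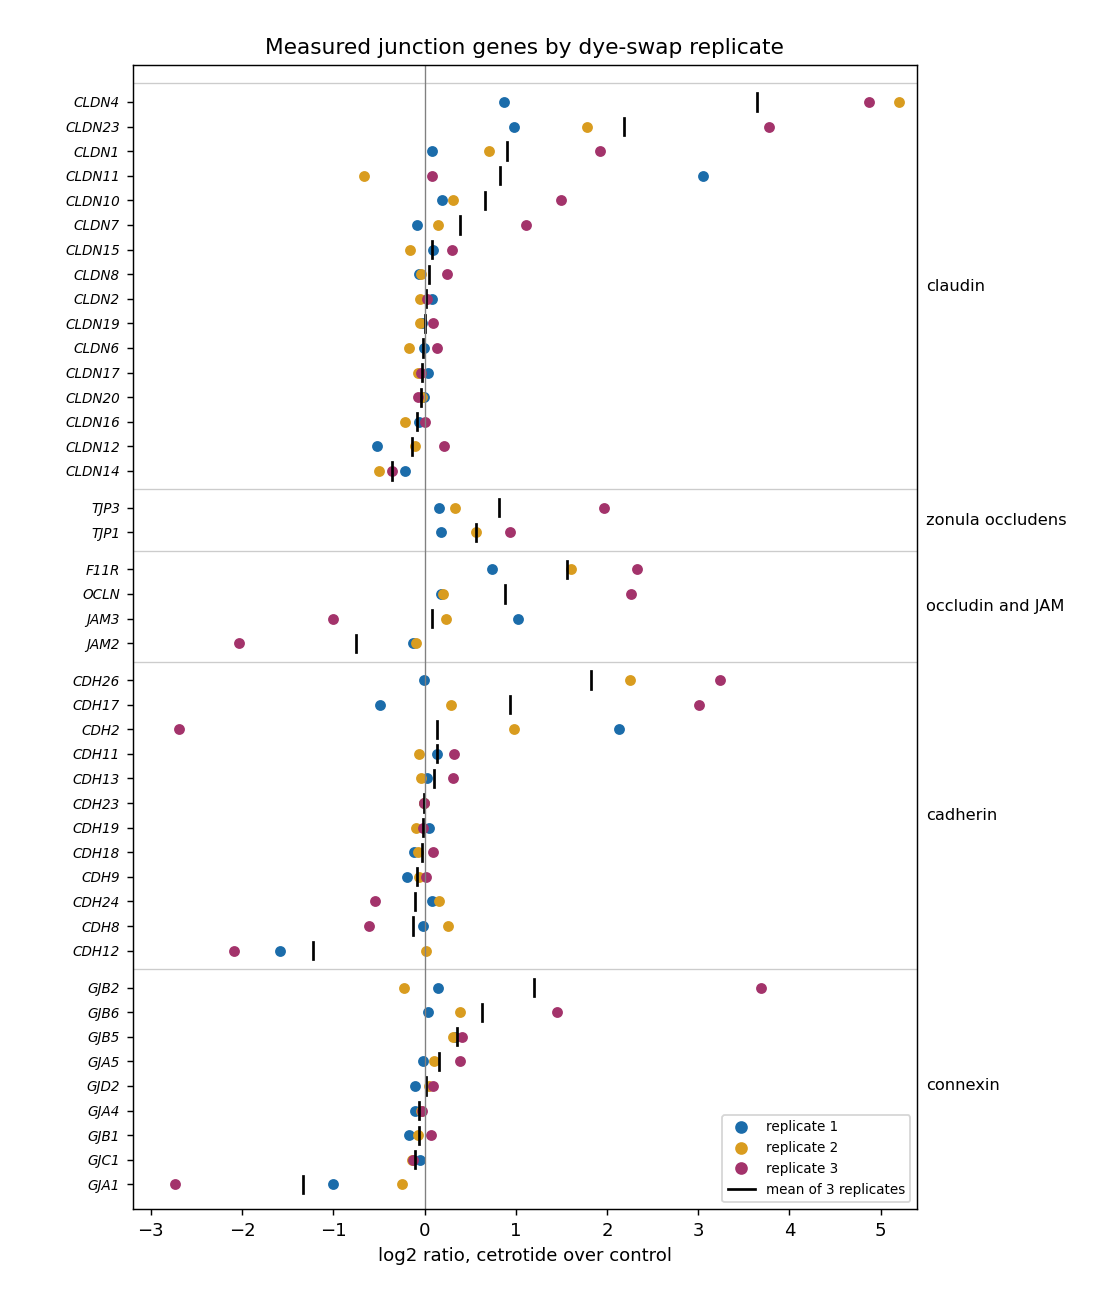
Log2 ratio of cetrotide over control RNA for the measured junction genes, with a point for each of 3 dye-swap replicates and a bar for their mean. CLDN4, CLDN23 and F11R have all replicates above 0, while CDH2 runs from -2.69 to 2.14.

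Among the connexins, 9 of 14 genes were measured, 5 with a mean above 0 and 4 below. GJA1, the main gap junction protein of granulosa cells, had log2 ratios of -1.01, -0.24 and -2.73. Its log2 level was 13.22, 13.86 and 11.92 in cetrotide RNA and 14.22, 14.11 and 14.65 in control RNA, so the groups did not overlap. These are means of both slides, and in replicate 2 the ratio was 0.22 on slide 1 but -0.71 on slide 2. The mean ratio was -1.33 ± 1.27 (SD, n = 3), with a 95% interval of -3.03 to 0.37 that includes 0 and a limma adjusted p of 0.435. Its other probe was lower as well, at -0.38, -0.07 and -1.68. Without replicate 3 the mean of the first probe was -0.63. The median of the granulosa marker list was lowest in the same replicate, and the part of these markers in the GJA1 values was not tested.

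The oocyte-side connexin in mouse, GJA4, varied little, with log2 ratios of -0.10, -0.04 and -0.02 and a 95% interval of -0.24 to 0.13 (limma adjusted p = 0.754). GJC1, a connexin best known from the heart's conduction tissue and smooth muscle, had ratios of -0.05, -0.14 and -0.13. It was the only junction gene lower on all 6 arrays, a pattern seen in 7.41% of all features; its mean was -0.11 ± 0.05 (SD, n = 3; limma adjusted p = 0.559). Both probes were dim, where the offset of 50 added to the signals pulls ratios towards 0. With an offset of 16 the means were -0.07 and -0.14, and with no background correction -0.02 and -0.08. Median pixels, with the offset kept at 50, gave -0.18 and -0.23.

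The beta connexins GJB2 and GJB6, which form the gap junctions of the inner ear and skin, were high in replicate 3. GJB2, singled out after its values were seen, had log2 ratios of 0.15, -0.23 and 3.69, and its other probe gave 0.59, 0.59 and 4.02. Its log2 level was 11.64 in the cetrotide RNA of replicate 3 and between 7.03 and 7.95 in all other samples. The mean of 1.20 ± 2.16 (SD, n = 3; limma adjusted p = 0.666) became -0.04 without replicate 3. GJB6 had ratios of 0.04, 0.39 and 1.45, with a mean of 0.63 ± 0.73 (SD, n = 3; limma adjusted p = 0.513), or 0.22 without replicate 3. GJB5, a connexin of skin and placenta, had the smallest p of all junction genes: its ratios of 0.33, 0.32 and 0.41 averaged 0.35 ± 0.05 (SD, n = 3), with a 95% interval of 0.16 to 0.54 and a limma adjusted p of 0.212. That ratio came from slide 2 alone, where the mean was 0.71, while slide 1 gave -0.00; its other probes had means of 0.16 and 0.06. The remaining connexins GJA5, GJB1 and GJD2 had means of 0.16, -0.06 and 0.01. Their probes were dim, with mean log2 intensities of 6.895, 7.025 and 7.086, so these means do not show unchanged levels.

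Among the cadherins, 12 of 20 genes were measured, and no gene passed an unadjusted p of 0.05. CDH2, or N-cadherin, the adherens junction cadherin of granulosa cells, differed between replicates more than between treatments. Its log2 ratios were 2.14, 0.98 and -2.69, and its second bright probe gave 1.72, 0.76 and -2.23. In cetrotide RNA its log2 level was 14.17, 13.25 and 10.43, around control levels of 12.04, 12.27 and 13.12. The mean was 0.14 ± 2.52 (SD, n = 3), with a 95% interval of -3.21 to 3.49 and a limma adjusted p of 0.971. Without replicate 3 it was 1.56, without replicate 2 it was -0.28 and without replicate 1 it was -0.86. Cetrotide and control could thus not be told apart for CDH2 at this precision, although each replicate taken alone showed a difference that both bright probes shared.

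CDH11, a cadherin of mesenchymal cells, had log2 ratios of 0.14, -0.06 and 0.32 on its brightest probe (limma adjusted p = 0.658), while its other probes had means of -0.52 and -0.42. The probes of this gene therefore disagree in sign. CDH23, the cadherin of the inner ear's tip links, had a mean of -0.00 ± 0.00 (SD, n = 3; limma adjusted p = 0.987). Its probe was dim, with cetrotide RNA above the limit on 4 of 6 arrays, and single arrays ran from -0.10 to 0.09. Larger ratios with wide spread were found in genes singled out after their values were seen. CDH12, a cadherin of neurons, had ratios of -1.58, 0.01 and -2.09, with a mean of -1.22 ± 1.10 (SD, n = 3; limma adjusted p = 0.413) that was -0.79 without replicate 3 and -1.84 without replicate 2. CDH26, known from human airway and gullet epithelium, had ratios of -0.01, 2.26 and 3.24 and a mean of 1.83 ± 1.66 (SD, n = 3; limma adjusted p = 0.415), with control RNA above the limit on 3 of 6 arrays. Its mean was 1.13 without replicate 3 and 2.75 without replicate 1. CDH17, the cadherin of intestinal epithelium, had ratios of -0.49, 0.29 and 3.01, and its mean of 0.94 became -0.10 without replicate 3. The other cadherins had means between -0.12 and 0.10. Their probes were all dim, with mean log2 intensities from 6.832 to 7.23, so these means do not show unchanged levels.

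All 4 genes of occludin and the junctional adhesion molecules were measured. F11R, the adhesion molecule JAM-A of epithelial and endothelial tight junctions, had log2 ratios of 0.74, 1.60 and 2.33. All 6 arrays were above 0, from 0.62 to 2.54. The log2 levels were 9.91, 10.33 and 12.26 in cetrotide RNA and 9.17, 8.73 and 9.93 in control RNA, so that the groups overlapped slightly. The mean was 1.56 ± 0.80 (SD, n = 3), a 2.94-fold ratio with a 95% interval of 0.48 to 2.63 in log2, and the limma adjusted p was 0.248. The replicate block, which enters 6 arrays for 3 positions, gave an adjusted p of 0.0474. F11R was the only junction gene called in that fit. Its dim second probe had a mean of 0.10, and leaving out replicates gave means of 1.17 to 1.97 for the bright probe.

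OCLN, encoding occludin itself, had log2 ratios of 0.18, 0.21 and 2.26. It was above 0 on all 6 arrays, with control RNA above the limit on 3 of them and cetrotide RNA on 5, and the mean of 0.88 ± 1.20 (SD, n = 3; limma adjusted p = 0.566) rested on replicate 3 and was 0.19 without it. JAM2, encoding JAM-B, an adhesion molecule of endothelial and other cells, ran the other way, with ratios of -0.12, -0.10 and -2.03. Its log2 levels of 12.13, 12.19 and 10.53 in cetrotide RNA all lay below the control levels of 12.26, 12.29 and 12.57. In replicates 1 and 2 the slides disagreed, with ratios of -0.42 and -0.47 on slide 1 but 0.17 and 0.27 on slide 2. The mean of -0.75 ± 1.11 (SD, n = 3; limma adjusted p = 0.597) was -0.11 without replicate 3. JAM3, encoding JAM-C, had ratios of 1.03, 0.23 and -1.01 (limma adjusted p = 0.959). Its other probes gave 0.25, 0.24 and -0.92, and 0.82, 0.44 and -0.78, so that all 3 probes were low in replicate 3 alone. These adhesion molecules thus took different courses in replicate 3, where F11R and OCLN were high and JAM2 and JAM3 low.

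Of the scaffold proteins, TJP1, encoding ZO-1, is present at many kinds of junction. Its log2 ratios were 0.18, 0.56 and 0.94. Its log2 levels of 13.54, 13.57 and 14.43 in cetrotide RNA lay just above control levels of 13.36, 13.01 and 13.49, without overlap. The mean was 0.56 ± 0.38 (SD, n = 3), a 1.48-fold ratio with a 95% interval of 0.03 to 1.09 in log2, and the limma adjusted p was 0.326. The unadjusted limma p of 0.0433 rose to 0.0917 with median centring (mean 0.39), to 0.152 without replicate 2 and to 0.0858 without replicate 3 (mean 0.37). TJP3, encoding the scaffold ZO-3 of epithelial tight junctions, had ratios of 0.16, 0.33 and 1.97 and a mean of 0.82 ± 1.00 (SD, n = 3; limma adjusted p = 0.526), or 0.24 without replicate 3. Control RNA was above the limit for TJP3 on 3 of 6 arrays, against 5 for cetrotide RNA.

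Claudins held the 2 highest mean ratios of all junction genes, those of CLDN4 and CLDN23. Of this family 16 of 19 genes were measured, 10 with a mean above 0 and 6 below. CLDN4, a claudin of epithelial barriers and a receptor for a clostridial enterotoxin, had log2 ratios of 0.87, 5.20 and 4.87. Its log2 levels were 8.27, 13.05 and 15.30 in cetrotide RNA and 7.41, 7.85 and 10.43 in control RNA. Control replicate 3 exceeded cetrotide replicate 1, but within every replicate cetrotide RNA was the higher. The mean was 3.65 ± 2.41 (SD, n = 3), a 12.5-fold ratio with a 95% interval of 0.44 to 6.85 in log2, and the limma adjusted p was 0.306. Leaving out replicates 1, 2 and 3 in turn gave 5.04, 2.87 and 3.03.

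CLDN23, a claudin of the intestinal lining, had log2 ratios of 0.98, 1.78 and 3.78. Its log2 levels in cetrotide RNA, at 9.39, 10.43 and 11.70, were all above the control levels of 8.41, 8.65 and 7.92. The mean of 2.18 ± 1.44 (SD, n = 3) is a 4.54-fold ratio, with a 95% interval of 0.26 to 4.10 in log2, a mean of 2.18 on each slide and a limma adjusted p of 0.306. Without replicate 3 the mean was 1.38.

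CLDN1, the claudin needed for the water barrier of skin, had log2 ratios of 0.08, 0.70 and 1.92, with a mean of 0.90 ± 0.94 (SD, n = 3; limma adjusted p = 0.467) that was 0.39 without replicate 3. CLDN10, which forms ion pores in the kidney, had ratios of 0.19, 0.31 and 1.49, with a mean of 0.67 ± 0.72 (SD, n = 3; limma adjusted p = 0.485) that was 0.25 without replicate 3. CLDN7, an epithelial claudin singled out after its values were seen, had ratios of -0.09, 0.15 and 1.11 (limma adjusted p = 0.637), and its mean of 0.39 was 0.03 without replicate 3. In each of these claudins the highest ratio was that of replicate 3.

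CLDN11, the claudin of Sertoli cell and myelin tight junctions, departed from this order. Its log2 ratios were 3.06, -0.67 and 0.08. The log2 levels in cetrotide RNA were 11.03, 9.55 and 10.25 and those in control RNA 7.97, 10.22 and 10.17, so the value that stood apart was the control of replicate 1. The mean was 0.82 ± 1.97 (SD, n = 3; limma adjusted p = 0.744), and without replicate 1 it was -0.30. CLDN14, a claudin of kidney and inner ear, had ratios of -0.22, -0.50 and -0.35, a mean of -0.36 ± 0.14 (SD, n = 3) and a limma adjusted p of 0.258. The slides contradicted each other for this gene, with -2.12 on slide 1 and 1.40 on slide 2. CLDN20 had a mean of -0.04 (limma adjusted p = 0.84), and the remaining 8 claudins had means between -0.14 and 0.08. Apart from CLDN12 and CLDN15, the probes of CLDN20 and these claudins were dim, with mean log2 intensities from 6.937 to 7.335. Their means do not show unchanged levels.

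Replicate 3 held the largest ratio in size for 27 of the 43 genes, or 62.8%, where it did so for 41.5% of all features. Ratios above 1 in log2 were found for 3, 4 and 12 junction genes in replicates 1, 2 and 3, and ratios below -1 for 2, 0 and 5. Over all features, 3.66%, 2.79% and 6.97% were above 1 and 2.46%, 0.521% and 5.04% were below -1. The replicate with the widest ratios over all features was thus also the widest for most junction genes.

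**Figure D2:**
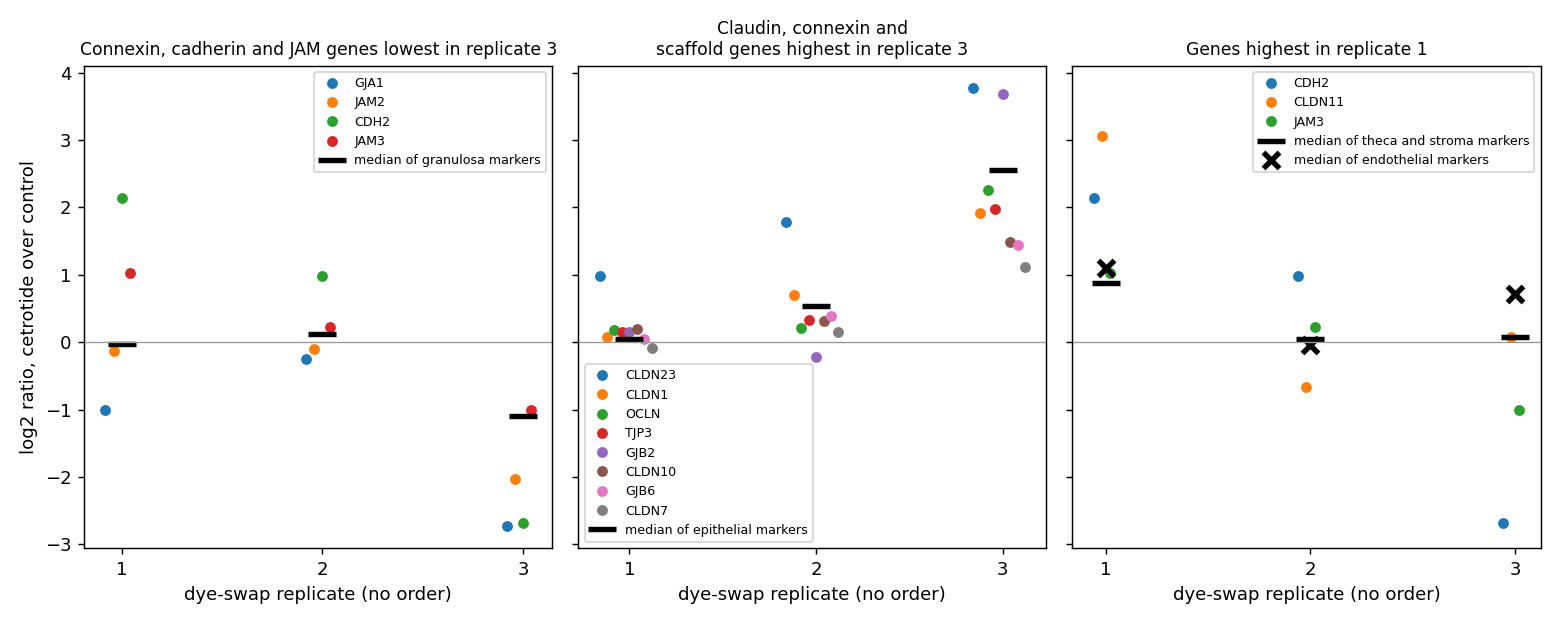
Log2 ratio of cetrotide over control RNA in each replicate for junction genes grouped after their values were seen, with black marks for the medians of the marker lists. GJA1 and JAM2 were lowest in replicate 3, as was the median of the granulosa markers. CLDN23, CLDN1, OCLN, TJP3 and GJB2 were highest there, as was the median of the epithelial markers.

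Marker lists of other cell types were set beside these ratios, and they took different courses over the replicates. Of 22 epithelial markers, 21 had named probes, 17 were measured and 16 of the 17 had a mean ratio above 0. Their median log2 ratio was 0.05, 0.54 and 2.56 in replicates 1, 2 and 3, and the mean log2 level over the list was 7.73 to 10.21 in cetrotide RNA and 7.24 to 8.35 in control RNA. The markers CDH1, KRT5, OVOL1 and SPINT1 were not above the limit on enough arrays, and the measured ones did not all follow the list's order. EPCAM, an adhesion protein of epithelial cells, had ratios of 0.78, 2.50 and 5.02, the keratin KRT8 had 4.18, 1.71 and 3.30, and the cadherin CDH3 had 0.53, -0.26 and -0.42. CLDN7 stands on both lists, and without it the median was 0.05, 0.66 and 2.69. The part of the epithelial markers in the claudin, occludin, F11R, GJB2, GJB6, TJP3, CDH17 and CDH26 ratios was not tested.

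Theca and stroma markers, all 18 measured, had medians of 0.87, 0.05 and 0.07, with mean log2 levels of 9.40 to 10.16 in cetrotide and 8.41 to 9.18 in control RNA. Their median was highest in replicate 1, where CDH2, CLDN11 and JAM3 also had their highest ratios. The markers did not all follow the median: COL3A1 had 8.37, 0.40 and 4.98, but PTCH1 had -1.35, -0.50 and -1.16. Of 18 endothelial markers, 14 were measured, with medians of 1.10, -0.05 and 0.71 and mean log2 levels of 7.17 to 8.44 in cetrotide and 7.15 to 7.40 in control RNA; PECAM1, FLT1, TIE1 and PLVAP were not above the limit on enough arrays. Of 22 leukocyte markers, 21 had named probes and 16 were measured, with medians of 0.64, -0.03 and 0.86 and levels of 8.25 to 8.94 against 7.63 to 8.37. Oocyte markers, 11 of 12 with named probes, had a median of -0.02 over the 7 measured, with KIT, which other cells also make, at 0.01, -0.36 and 1.88. The part of these lists in the junction gene ratios was not tested.

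Levels of the junction genes also differed among samples of the same RNA. The range of log2 levels over 3 replicates had a median of 0.556 in cetrotide and 0.286 in control RNA over the 43 genes, against 0.309 and 0.278 over all features. The range in cetrotide RNA was the wider for 26 of the 43, or 60.5%, beside 54% of all features. Levels did not overlap between the RNAs for 4 genes that were higher in cetrotide RNA, namely CLDN10, CLDN23, GJB5 and TJP1, which is 9.30% against 9.26% of all features. For GJA1 and JAM2 all cetrotide levels were below all control levels, 4.65% of the 43 genes against 8.31% of all features. The first share was near the background and the second below it. Each level is a mean over both slides. For all of these genes but CLDN23, the slide ratios differed in sign in some replicate.

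**Figure D3:**
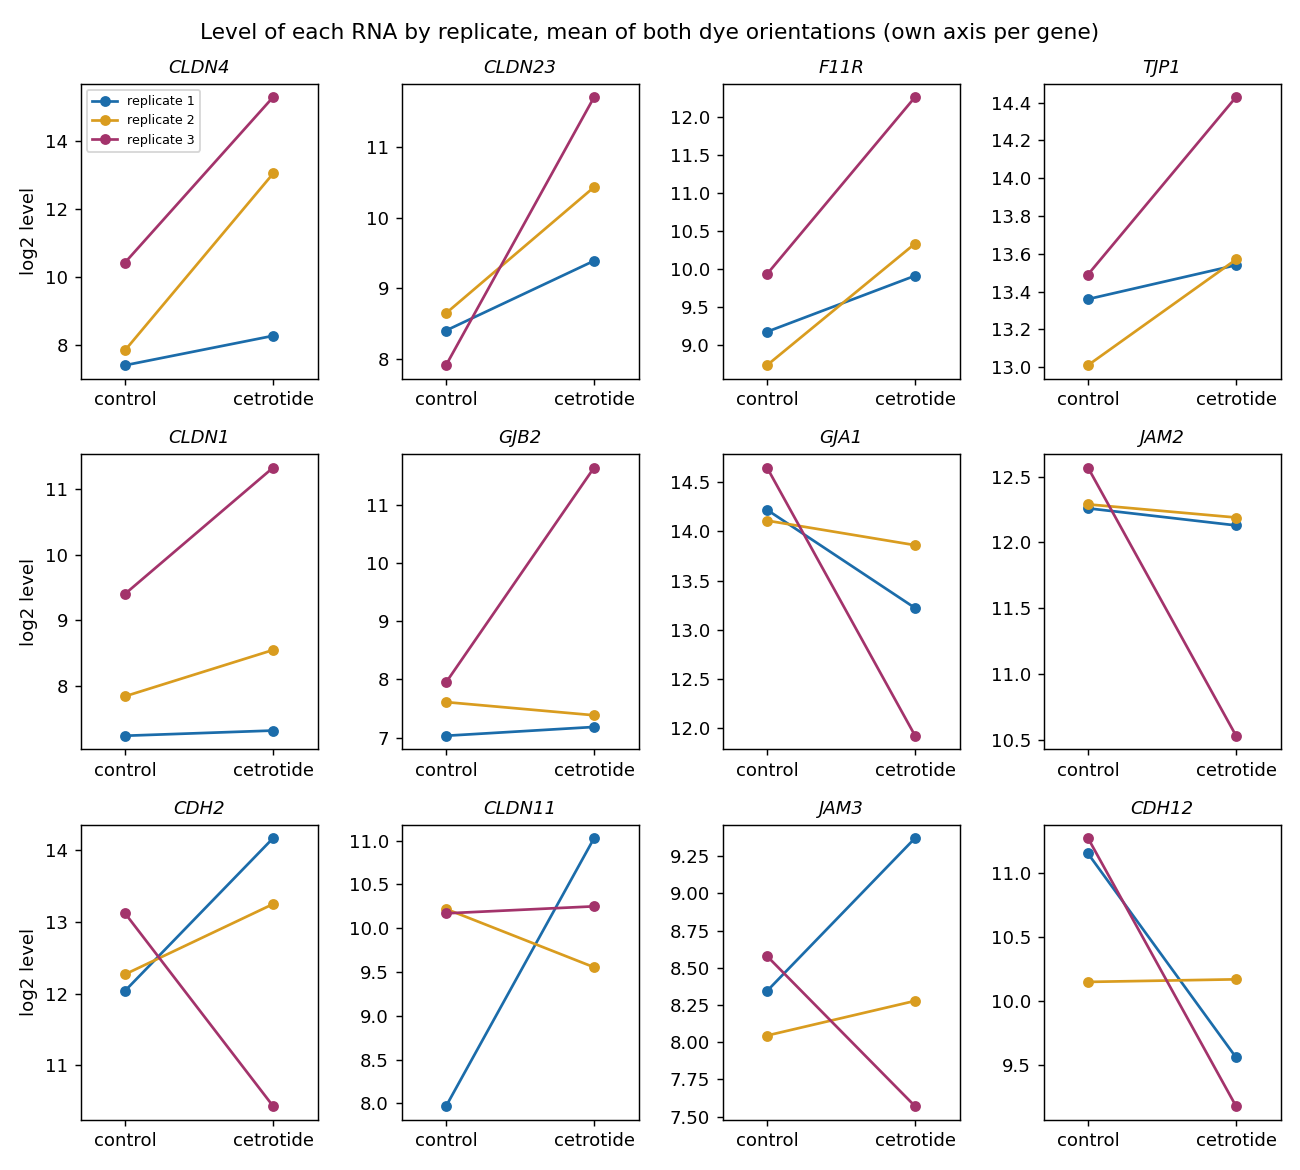
Log2 level after normalization between channels in control and cetrotide RNA, with a point for each of 3 replicates and a line joining the RNAs of the same replicate, for 12 junction genes, each on its own axis. Levels of different genes come from different probes and are not to be compared with each other.

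The slides were also compared. Ratios of 5 genes, or 11.6%, were above 0 on all 6 arrays (CLDN4, CLDN23, F11R, OCLN and TJP3), beside 7.86% of all features, and 1 gene, or 2.33%, was below 0 on all of them. OCLN and TJP3 counted as measured only through cetrotide RNA. In 7 genes every array of slide 1 had the opposite sign to every array of slide 2, namely CLDN14, CDH24, CLDN17, CDH18, CLDN2, GJD2 and CLDN19. These are 16.3% of the 43 genes, and the same held for 16.8% of all features. Because each slide carries a single dye orientation, slide and dye cannot be told apart.

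**Figure D4:**
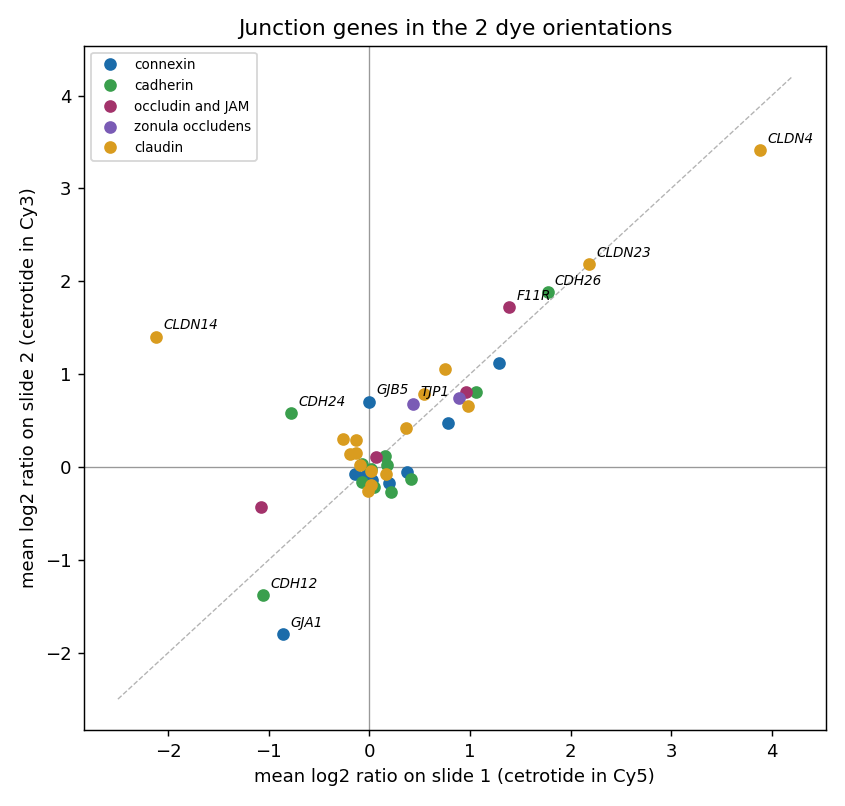
Mean log2 ratio of cetrotide over control RNA on slide 1 (horizontal axis) and slide 2 (vertical axis), with a point for each measured junction gene. CLDN4, CLDN23 and F11R lie close to the line of equal ratios, while CLDN14 lies far from it, at -2.12 and 1.40.

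Partner proteins from lists outside the junction families were compared in the same fit. Of 13 catenin and nectin genes, 11 had named probes and 10 were measured, 6 with means above 0 and 4 below. Beside 8.00% of all features, 1 of the 10 passed an unadjusted limma p of 0.05 on the higher side. It was CTNND1, or p120 catenin, which binds cadherins and holds them at the cell surface. Its log2 ratios of 1.33, 1.14 and 1.03 lay close together, with a mean of 1.17 ± 0.15 (SD, n = 3) and a limma adjusted p of 0.178. The replicate block, which enters 6 arrays for 3 positions, gave an adjusted p of 0.0165. The CTNND1 probe used was the brightest of 3, and the others had means of -0.01 and -0.06, so the mean over probes was 0.365. NECTIN2, an adhesion protein of adherens junctions, had a mean of 0.33 ± 0.25 (SD, n = 3; limma adjusted p = 0.386).

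Desmosome genes, 12 listed, 11 with named probes and 10 measured, had 6 means above 0 and none past the unadjusted threshold in limma in either direction. PERP, a membrane protein of desmosomes, had log2 ratios of 0.83, 0.34 and 3.13 (limma adjusted p = 0.465), and its mean of 1.43 was 0.58 without replicate 3. The other PERP probe, less bright, gave 1.22, 1.59 and 4.58. The desmosomal cadherin DSC2 had a mean of -0.11 ± 0.09 (SD, n = 3; limma adjusted p = 0.602). Among 25 genes of tight junction scaffolds and polarity complexes, 20 had named probes and 16 were measured. Of those measured, 11 were above 0 and 5 below. Beside 8.00% of all features, 1 of the 16 passed the unadjusted threshold on the higher side. This was LSR, encoding angulin-1 of the corners where 3 cells meet, with ratios of 0.83, 0.54 and 0.36 and a limma adjusted p of 0.229. PARD6G of the polarity complex had a mean of 0.29 ± 0.22 (SD, n = 3; limma adjusted p = 0.41), or 0.17 without replicate 3.

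Of 7 transcription factors known to repress epithelial junction genes, 4 were measured, and 2 passed an unadjusted p of 0.05 on the higher side, as 8.00% of all features did. TWIST2 had log2 ratios of 0.92, 0.66 and 1.72 (limma adjusted p = 0.248) and SNAI1 had 0.40, 0.10 and 0.35 (limma adjusted p = 0.343). The unadjusted limma p of SNAI1, 0.0491, became 0.0594 with no background correction, 0.0645 with median centring, 0.243 with median pixels and 0.214 in the authors' deposited table, and leaving out replicates 1 and 3 gave 0.22 and 0.144. The channel proteins PANX1 and PANX2 had means of -0.05 and -0.06 (limma adjusted p = 0.797 and 0.764). None of the genes on these lists passed the adjusted threshold in limma over the dye-swap averages.

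The 16 junction genes without a measurement were 8 cadherins, 5 connexins and 3 claudins. They were CDH4, CDH6, CDH7, CDH10, CDH15, CDH16, CDH20, CDH22, CLDN3, CLDN9, CLDN18, GJA3, GJA10, GJC3, GJD3 and GJD4. Neither RNA was above the limit on any array for CDH16, CDH20 and CLDN18, and no ratio is given for any of the 16. Several measured genes lie beside an unmeasured relative in the RefSeq order of the bovine genome, as CLDN4 does beside CLDN3, GJB2 beside GJA3 and CDH26 beside CDH4. Of the 43 measured genes, 10 had several usable probes, and in CDH11, CLDN15 and JAM3 these differed in sign, while 33 rested on a single probe.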

How the data were processed

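Members and gene lists were chosen with earlier results of these data known. The authors deposited scanner tables of spot intensity, per the file headers mean and median pixel values of spot and local background, and a table of processed log2 ratios whose centring and normalization the sources used here do not state. Its columns ran cetrotide over control and correlated, over all gene probes, with the normalized ratios used here at 0.844 to 0.943, with medians of -0.00191, -0.000108, 0.000134, 0.00229, 0.00214 and 0.00748; it served as an alternative. Its log base was taken as 2 from slopes of 0.828 to 0.93 against log2 pixel ratios. Per the labels' protocols, RNA was amplified over T7 rounds and labelled chemically.

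Mean intensities were background corrected (normexp, offset 50) and normalized within arrays by loess (weight 0 for control spots). The dye-swap averages were tested two-sided with lmFit and eBayes of limma 3.58.1 under R 4.3.3. Each table held 45220 spots, 43794 of them gene probes and 153 negative controls, and 14 summary rows were left out. The filter left 31769 probes and 27429 features, of which 12389 were named genes, each represented by its brightest kept probe, and 15040 unnamed probes. Symbols followed the platform annotation, 1524 of them updated through RefSeq synonyms. Channel levels came after loess and Aquantile. Deviations from the mean of each slide correlated between arrays in the same position (r = 0.9, 0.934 and 0.954). Between other positions r ran from -0.706 to -0.00759, which the centring itself lowers. The ratios themselves correlated at 0.618, 0.434 and 0.759 in the same positions and at -0.0294 to 0.304 in others. Arrays in the same position were averaged. Genes named were known granulosa junction genes, up to 10 per direction of smallest p with equal signs, and up to 2 per partner list; GJB2, CDH12, CDH17, CDH26 and CLDN7 were added after their values were seen, as were the genes named only in counts or ranges. The number of arrays limits precision. Alternatives changed background correction, pixel statistic, normalization, filter, probe choice, replicate block, slide and replicates. The fit was also run on simulated data with independent replicates and no slide or dye effect. That run cannot show how the p-values behave in these data.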

Additional observations from a re-analysis of the deposited data

How the results depend on the processing

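Over 15 alternatives, no junction gene passed the adjusted threshold except under a replicate block and on slide 2 alone. The replicate block on 6 arrays (consensus correlation 0.852) called 411 features higher and 264 lower, with 1 junction gene higher (F11R), and CTNND1 was called too. At an unadjusted p that fit gave 9 junction genes higher and 2 lower, beside 2881 and 2452 of all 27429 features. Slide 1 alone gave 3 junction genes higher and 3 lower at an unadjusted p, beside 2088 and 2219 of all 27429 features. Slide 2 alone called 662 features higher and 225 lower, with 4113 and 3749 at an unadjusted p; 2 junction genes were called, GJB5 (adjusted p = 0.0469) and CLDN14 (adjusted p = 0.0409), as was CTNND1 (adjusted p = 0.0409). At an unadjusted p it gave 8 junction genes higher and 2 lower, and their median log2 ratio was 0.12. Leaving out replicates gave 1172 to 3016 features higher and 761 to 1764 lower at an unadjusted p, with 1 (without replicate 2) to 5 junction genes higher and 0 (without replicate 1 or 3) to 1 lower, and a median of -0.01 to 0.06.

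Signs turned for CDH23 with median pixels (0.0356), median centring (0.0132), the authors' deposited table (0.00792) and slide 1 (0.0141), and for PANX1 with median pixels (0.0575), the authors' deposited table (0.0656) and slide 1 (0.143). CDH2 was -0.0234 with median centring and -0.134 on slide 2. CDH11 was -0.267 as the mean over probes. On slide 1 GJA4 was 0.0291, GJB5 -0.00225, DSC2 0.00351 and PANX2 0.00584, and on slide 2 CLDN14 was 1.40 and CLDN20 0.0244. Leaving out replicates turned the sign of CDH2 (-0.858 without replicate 1 to 1.56 without replicate 3, with -0.277 without replicate 2), CLDN11 (-0.296 without replicate 1 to 1.57), JAM3 (-0.388 without replicate 1 to 0.63), GJB2 (-0.0377 without replicate 3 to 1.92) and CDH17 (-0.101 without replicate 3 to 1.65). The cause was not tested.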
